A study of Mus musculus with 6 samples.

Results

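MicroRNA star strands, the arms of a hairpin that older nomenclature marks with an asterisk as the less abundant product, were compared with the opposite arms of the same hairpins in the mouse aorta. The measurements were quantitative PCR cycle thresholds (Ct), the amplification cycle at which a product crosses the detection level, so that a lower Ct means more template and Ct 40 means no product. Of 517 microRNA assays, 110 carried a star, and 86 of these were selected on detection, a Ct below 35 in 2 or more of the 3 Dicer_WT aortas or of the 3 Dicer_KO aortas. For 81 of the 86 the same table also held the arm without the star, called the guide here, and in 77 of these pairs the guide was detected by the same rule. The samples were whole aortas of 6 male mice, 3 per genotype, all lacking Apoe and all carrying LysM-Cre, in which lysozyme M drives the recombinase. The Dicer_KO mice were LysM-Cre/Dicer flox/flox/Apoe-/- and the Dicer_WT mice were their LysM-Cre/Dicer wt/wt/Apoe-/- littermates. Both were given as 6 to 8 weeks of age and received a high-fat diet with 21% crude fat for 12 weeks, which drives atherosclerosis in Apoe-deficient mice.

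Dicer cuts the precursor hairpin of a microRNA into a short duplex, of which Argonaute keeps a single strand, the guide, while the passenger strand is discarded and usually degraded. Which strand is kept is known to depend on how loosely each 5′ end is paired and on the first base, for which Argonaute prefers U. Both strands come from the same cut, so loss of Dicer acts on the supply of both, whereas a change in strand retention acts on their ratio. Cre driven by lysozyme M works in myeloid cells (macrophages, monocytes, neutrophils), so that most cells of an aorta are not expected to carry the deletion. Neither the share of cells that lost Dicer nor Dicer mRNA itself was measured.

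The deposited table names no sequences, so the arms were assigned from microRNA nomenclature and their sequences taken from RefSeq (build GRCm38.p6). Of the 86 stars 76 were matched, 53 as the 3p arm and 23 as the 5p arm, and for 69 of the 77 pairs both arms were in the table. In the sequences shown, capitals mark the seed, bases 2 to 8, through which a microRNA recognises its targets. Within each of the 69 pairs the arms had different seeds.

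The first set shows hairpins whose star was read earlier than its guide, miR-7a from chr13:58392779-58392886 on the minus strand and miR-193 from chr11:79711969-79712034 on the plus strand.
miR-7a*: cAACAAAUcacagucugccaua
miR-7a: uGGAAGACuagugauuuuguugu
miR-193*: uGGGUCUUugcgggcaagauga
miR-193: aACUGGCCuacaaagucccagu

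The second set shows hairpins whose arms were read at nearly the same cycle, miR-30a from chr1:23272269-23272339 on the plus strand and miR-30e from chr4:120772606-120772697 on the minus strand. Their stars share a seed and 17 first bases and differ by G18A, counted from the 5′ end with the base of miR-30a* first.
miR-30a*: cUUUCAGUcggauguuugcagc
miR-30a: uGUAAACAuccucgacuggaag
miR-30e*: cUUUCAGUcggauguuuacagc
miR-30e: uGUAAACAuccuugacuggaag

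The third set shows stars read far later than their guides, miR-191 from chr9:108568319-108568392 on the plus strand and both hairpins that give miR-24, at chr13:63301208-63301275 and chr8:84208815-84208921 on the plus strand. The stars of the miR-24 hairpins share their first 16 bases.
miR-191*: gCUGCACUuggauuucguuccc
miR-191: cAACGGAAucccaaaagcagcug
miR-24-1*: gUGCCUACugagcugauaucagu
miR-24-2*: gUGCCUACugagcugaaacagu
miR-24: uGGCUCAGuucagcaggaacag

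The fourth set shows let-7d from chr13:48536012-48536114 on the minus strand, the pair with the smallest p-value for a genotype difference in star-minus-guide Ct, beside the star of its neighbour let-7a from chr13:48538179-48538272. The let-7d star differs from that of let-7a by A7G, U9C, A12G, U16C and C22U, counted from the 5′ end with the base of let-7a* first.
let-7d*: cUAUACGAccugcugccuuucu
let-7d: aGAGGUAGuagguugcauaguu
let-7a*: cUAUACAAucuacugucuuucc

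All 110 star assays sat on the second of 2 cards, whereas all but 4 of the 77 guides sat on the first, so each arm was expressed relative to the mean Ct of U6, snoRNA135 and snoRNA202 on its own card. A star-minus-guide Ct of 1 cycle would be a 2-fold difference if both assays amplified equally well, but their efficiencies are unknown. The height of a star-minus-guide Ct is therefore a description. A constant offset between the 2 assays drops out of its difference between genotypes, but unequal efficiencies would still scale the change of each arm differently. Of the control RNAs read on both cards and not used as references, U87 differed between cards by the same amount in both genotypes (difference -0.03 cycles, exact permutation p = 0.8), and Y1 by 0.34 cycles (exact permutation p = 0.7), with Dicer_KO replicate 3 at 0.48 and the other 5 aortas from -0.71 to -0.43. With 3 aortas against 3 the smallest two-sided p of that test is 0.1. The labels give the cell type as macrophage, but microRNAs of the vessel wall were read early: smooth muscle miR-145 at Ct 11.5 to 12.7, endothelial miR-126-3p at 15.9 to 16.5 and myeloid miR-223 at 19.2 to 20.2 in Dicer_WT and 21.1 to 21.95 in Dicer_KO. The labels call the replicates biological, and p-values measure the spread between these aortas.

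Of the 86 stars, 78 were detected in all 6 aortas, with mean Ct in Dicer_WT from 17.6 for miR-30a* to 33.4 for miR-136*. Only miR-30a* and miR-30e* had a Dicer_WT mean below Ct 20, and 29 stars lay below Ct 25. The median was 26.6 over the 86 stars and 25.2 over the 291 detected assays without a star. Of the 24 star assays that were not taken, 17 gave no well below Ct 35 and 7 gave a single one. In 5 of these 7 the single well was that of Dicer_WT replicate 2 (miR-200c*, miR-20b*, miR-325*, miR-467e* and miR-92a*). Next to the limit on the inside were 4 stars that passed through a single genotype. The wells of miR-881*, from an X-linked cluster, read 29.96, 29.41 and 30.79 in Dicer_WT and 40 in each Dicer_KO aorta. Those of miR-148a* read 27.5, 27.9 and 28.1 in Dicer_WT, and 27.4, 40 and 40 in Dicer_KO. The miR-30c-1* wells read 40, 27.9 and 27.8 against 27.3, 40 and 40, and the miR-200b* wells 40, 30.8 and 40 against 29.8, 29.6 and 31.2. Of these 4 stars, miR-881* and miR-148a* had every Dicer_WT well below the limit and miR-200b* every Dicer_KO well. The values of miR-148a* and miR-30c-1* jumped from about Ct 28 to no product with nothing between.

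Across the 77 pairs the star was read a median of 4.24 cycles after its guide in Dicer_WT, with quartiles of 1.57 and 7.79, and 4.24 cycles after it in Dicer_KO, with quartiles of 1.45 and 7.78. The medians of the single aortas were 4.21, 4.08 and 4.32 in Dicer_WT and 4.504, 4.121 and 4.213 in Dicer_KO. These 6 medians overlapped between genotypes. The star followed its guide in every aorta in 62 pairs and preceded it in every aorta in 14, and the sign varied in miR-300*, whose guide was silent in 2 Dicer_KO aortas. The distance exceeded 5 cycles in 34 pairs and 10 cycles in 10. The 24 pairs that the table names 5p and 3p, without a star, were ordered by each arm's mean card-relative Ct over 6 aortas. The later arm followed the other by a median of 3.30 cycles in Dicer_WT, an order that the choice of arm fixes. For 13 of the 66 guides found in RefSeq more than 1 hairpin was listed, so the guide assay reads more than the partner of its star. The listing lacked some hairpins, so further guides may have several. The median in Dicer_WT was 3.76 cycles over the 53 pairs with a single hairpin listed for each arm, of which 10 had the star ahead. It was 7.69 cycles over the 16 pairs with several guide hairpins listed.

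**Figure D1:**
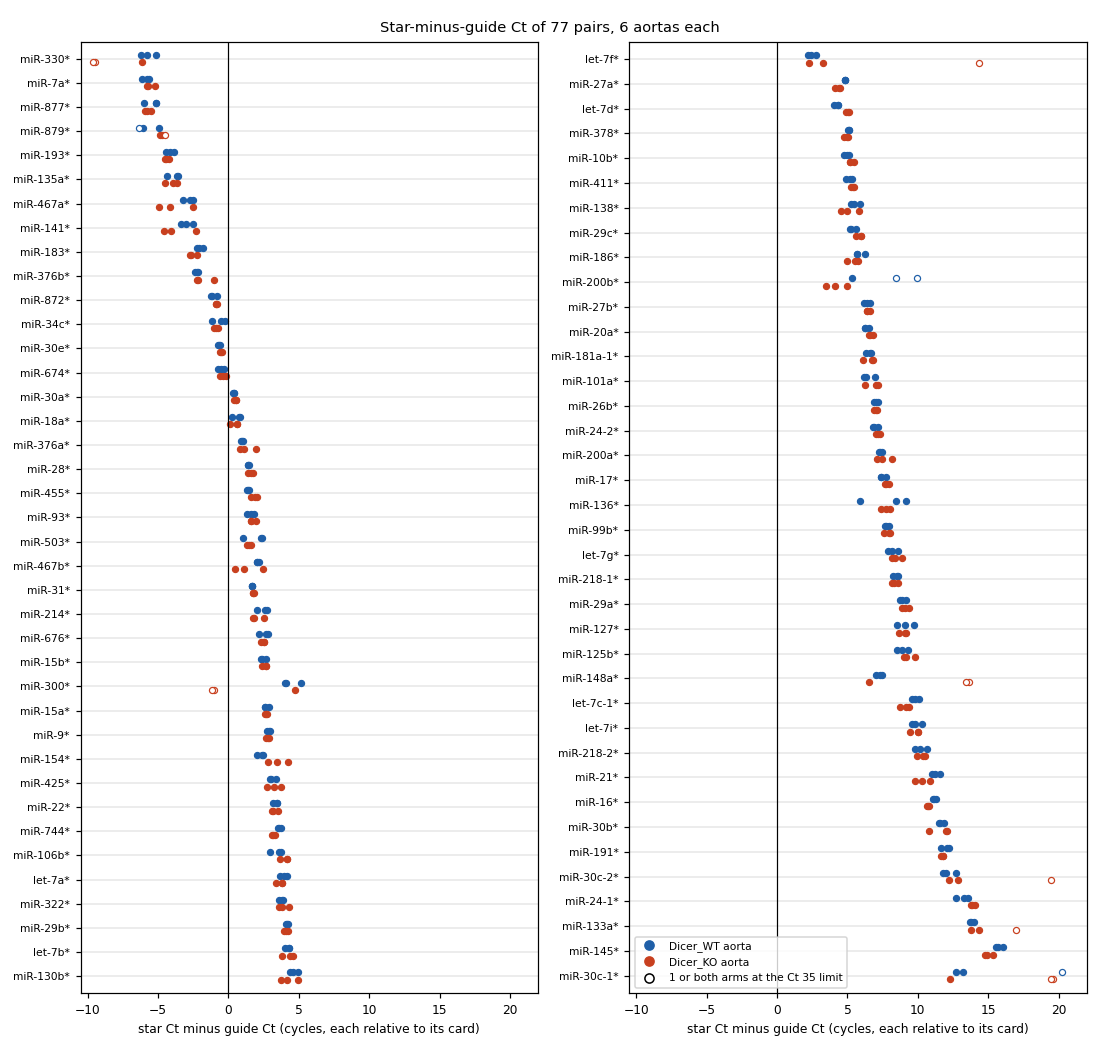
Star-minus-guide Ct in cycles (x axis, each arm relative to the references of its own card) for 77 pairs (y axis, named by star and ordered by the mean of 6 aortas, continuing in the right panel). Each point is 1 aorta, blue for Dicer_WT and red for Dicer_KO, and open points have an arm at the Ct 35 limit. Among pairs with every well below the limit the means run from -5.70 cycles for miR-7a* to 15.4 for miR-145*, open points reach from -9.59 for miR-330* to 20.3 for miR-30c-1*, and the colours of most rows lie together.

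In 14 pairs the strand named star gave the stronger signal in this tissue. For miR-7a, a microRNA known from neurons and pancreatic islets, star-minus-guide Ct was -5.61, -6.13 and -5.80 in Dicer_WT and -5.79, -5.18 and -5.71 in Dicer_KO. The star was read at Ct 21.95 to 23.08 and the guide at 27.98 to 29.34, and the genotypes overlapped. For miR-877, a microRNA made by splicing of a short intron, both arms were on the second card, and the values were -5.15, -5.14 and -6.00 against -5.75, -5.50 and -5.89. The distance within this pair thus does not involve the step between cards. For miR-193, whose hairpin is shown above, the values were -3.87, -4.14 and -4.41 in Dicer_WT and -4.24, -4.42 and -4.47 in Dicer_KO. For miR-135a they were -3.54, -3.66 and -4.35 against -3.94, -4.47 and -3.66. Both pairs had all 6 aortas more than 3 cycles below 0.

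The remaining full pairs of this kind, with both arms below Ct 35 in every aorta, had Dicer_WT means of -2.97 cycles for miR-141*, -2.81 for miR-467a*, -2.26 for miR-376b*, -2.03 for miR-183*, -1.08 for miR-872*, -0.64 for miR-34c*, -0.65 for miR-30e* and -0.52 for miR-674*. In miR-467a*, from the repeat cluster within Sfmbt2, the Dicer_KO aortas read -2.50, -4.90 and -4.12 and so spread wider than the Dicer_WT aortas at -2.48, -2.71 and -3.24. The 14 also include miR-330* and miR-879*, whose guides were partly silent. The guide miR-330 was read at 28.697, 30.001 and 30.196 in Dicer_WT and at 31.0, 40 and 40 in Dicer_KO, and miR-879 at 33.5 to 40 in all. The assays miR-485*, miR-146b*, miR-470* and miR-881* had no detected guide by the rule. Of these, miR-485*, from the imprinted Dlk1-Dio3 region, was read at Ct 24.98 to 25.97 in all 6 aortas while miR-485 was at 40 in each.

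Arms were read nearly together in the miR-30a and miR-30e hairpins, whose family is known for restraining matrix genes. For miR-30a star-minus-guide Ct was 0.34, 0.37 and 0.41 in Dicer_WT and 0.55, 0.52 and 0.39 in Dicer_KO. For miR-30e it was -0.72, -0.57 and -0.67 against -0.57, -0.52 and -0.49. The miR-30e values were all higher in Dicer_KO, by a mean of 0.13 cycles (limma adjusted p = 0.607). The nearest values of the genotypes almost met, both at -0.57 when rounded. The miR-18a arms were 0.61 ± 0.328 cycles apart in Dicer_WT (SD, n = 3), and those of miR-31 1.68 ± 0.011.

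The largest distance among full pairs was that of miR-145, a smooth muscle microRNA, with 15.7, 15.6 and 16.1 cycles in Dicer_WT and 14.9, 14.8 and 15.3 in Dicer_KO. Its guide was read at Ct 11.5 to 12.7, the earliest of the guides named here, and its star at 26.3 to 27.6. For miR-191 the values were 11.6, 12.1 and 12.2 in Dicer_WT and 11.8, 11.8 and 11.7 in Dicer_KO, with overlap. Ordered by the mean of 6 aortas, the other full pairs among the 10 widest full pairs had Dicer_WT means of 13.2 cycles for miR-24-1*, 11.7 for miR-30b*, 11.2 for miR-21*, 11.2 for miR-16*, 10.2 for miR-218-2*, 9.90 for let-7i*, 9.81 for let-7c-1* and 8.91 for miR-125b*. Several of these guides, among them let-7c, miR-16, miR-24, miR-125b-5p and miR-218, come from more than 1 hairpin.

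Neighbouring hairpins, which can be cut from a single primary transcript, often differed in star-minus-guide Ct. Over the 18 combinations of pairs, both arms detected, whose hairpins lay within 10 kb on the same strand, the difference between Dicer_WT means had a median of 2.67 cycles, from 0.32 to 16.0, against 4.67 cycles for any 2 of the 69 pairs. The widest, 16.0, involved miR-30c-1*, which was silent in a Dicer_WT aorta; in the other two Dicer_WT aortas it stood at 13.2 and 12.7 cycles, and miR-30e*, 2984 bases away, between -0.72 and -0.57. On chromosome 9, miR-191* stood at 12.0 cycles and miR-425*, 385 bases away, at 3.11. In the miR-17 cluster on chromosome 14, known for promoting cell proliferation, miR-17* stood at 7.50 cycles, miR-18a* at 0.61 and miR-20a* at 6.35, with miR-17 and miR-18a 97 bases apart. The 6 aortas of miR-18a* lay at 0.12 to 0.82 cycles and those of miR-17* at 7.37 to 7.98, with no overlap. For chromosome 13, miR-24-1* stood at 13.2 cycles and miR-27b* at 6.37. Their counterparts on chromosome 8, miR-24-2* and miR-27a*, stood at 6.95 and 4.84. Both miR-24 stars were set against a single guide assay, which reads both hairpins. The guides miR-30c, let-7f and miR-29b also had 2 hairpins listed each. Values with these guides are therefore not the arm ratio of a single hairpin. The closest neighbours were let-7a* at 3.92 cycles and let-7d* at 4.24.

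**Figure D2:**
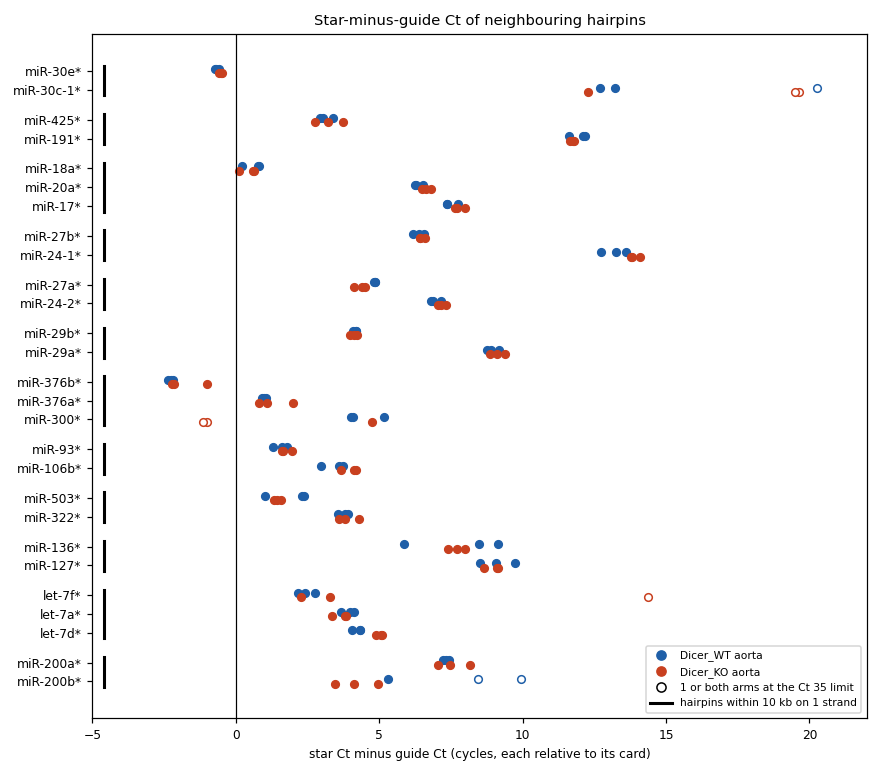
Star-minus-guide Ct in cycles (x axis) of stars whose hairpins lie within 10 kb on the same strand (y axis, black bars join neighbours). Points are aortas, blue for Dicer_WT and red for Dicer_KO, open where an arm was at the Ct 35 limit. The miR-18a* points lie at 0.12 to 0.82 cycles, apart from those of miR-17* and miR-20a*, and miR-425* lies apart from miR-191*.

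A first base U was more frequent in the arms that nomenclature had called guide than in those called star. Of the 69 pairs with both sequences, 45 guides (65.2%) and 11 stars (15.9%) began with U, against 40.9% of the 1679 mature mouse microRNAs in the RefSeq table. In the 40 pairs whose guide but not star began with U, the median star-minus-guide Ct in Dicer_WT was 5.65 cycles. It was 0.16 cycles in the 6 pairs whose star but not guide began with U. Those were miR-877 (-5.43), miR-193 (-4.14), miR-872 (-1.08), miR-455 (1.39), miR-31 (1.68) and miR-214 (2.48). The median was 4.0 cycles in the 18 pairs with U on neither arm and 5.14 in the 5 with U on both. By the count of A or U among the first 4 bases, the median was 6.10 cycles in 28 pairs where the guide had more, 4.52 in 22 with equal counts and 3.62 in 19 where the star had more. Across the 69 pairs the rank correlation of this difference with star-minus-guide Ct was 0.17, a description, since the pairs share 6 aortas and some share a guide. Of the 12 pairs among these 69 whose mean star-minus-guide Ct lay below 0, 6 guides and 4 stars began with U. Their mean count of A or U among the first 4 bases was 2.42 in the guides and 2.17 in the stars. The miR-7a hairpin was among these 12, with U first in the guide and C first in the star.

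Between genotypes, 1 star of 86 passed limma's test with adjusted p under 0.05 as lower in Dicer_KO and 0 as higher, against 1.86% lower and 0.0% higher of all assays tested. In whole tissue, fewer cells of a type and less RNA per cell cannot be told apart. The star called was miR-881*, which entered through Dicer_WT alone and had to differ. With silent wells set to Ct 35 its fitted value was 27.6-fold lower, a size set by that limit. Over 18 alternatives its log2 fold change ran from -9.79 to -1.79. At an unadjusted p under 0.05, 13 stars were lower and 3 higher, which is 15.1% and 3.49% of the stars against 24.7% and 2.12% of all assays. The genotypes did not overlap in 25 stars that were lower, 29.1% against 32.9% of all assays, and in 3 that were higher, 3.49% against 2.39%. The median log2 fold change was -0.39 over the stars, -0.43 over all assays and -0.32 over the 74 guides of the pairs. It was -0.37 over the 78 stars detected in every aorta. Below 0 were 64 of 86 stars (74.4%) and 78.5% of all assays. These signs depended on the references: with U87 and Y1, whose own log2 differences were -0.44 and -0.89 on the stars' card (overlapping between genotypes) and -0.47 and -0.55 on card 1 (without overlap), the median was 0.27 over the stars and 0.16 over all assays, and 20 stars were below 0.

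The smallest p-values after miR-881* were those of miR-330* and let-7d*. The log2 level of miR-330*, relative to the references, was -6.63, -7.01 and -6.70 in Dicer_WT and -7.66, -8.04 and -7.99 in Dicer_KO. Every Dicer_KO aorta lay below every Dicer_WT aorta, and the log2 difference was -1.12 with an SE of 0.205 (limma adjusted p = 0.0589). The level of let-7d*, partner of a let-7 microRNA, a family known for promoting differentiation, was -6.14, -6.36 and -6.39 against -7.08, -7.92 and -7.97. The genotypes did not overlap, and the log2 fold change was -1.36 ± 0.288 (SE, limma adjusted p = 0.0648). Without Dicer_KO replicate 1, 10 stars passed, 7 lower (let-7d*, miR-148a*, miR-154*, miR-330*, miR-376a*, miR-881* and miR-99b*) and 3 higher (miR-322*, miR-378* and miR-503*), while calls over all assays rose from 7 to 64. Leaving out Dicer_WT replicate 2 added miR-200b* as higher, so 2 stars passed.

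Further stars with small p-values had log2 fold changes of -0.69 for miR-425*, -0.83 for miR-99b*, -0.65 for miR-29c*, -1.14 for miR-24-1*, -0.51 for miR-93*, -0.66 for miR-24-2* and -1.34 for miR-154*, with limma adjusted p from 0.0931 to 0.139. Those of miR-29c*, miR-93* and miR-24-2* turned above 0 (0.017, 0.16 and 0.0042) when U87 and Y1 were the references. Upward, miR-378*, from an intron of the metabolic regulator Ppargc1b, had levels of -8.55, -7.96 and -8.12 in Dicer_WT and -7.90, -6.81 and -6.73 in Dicer_KO. The genotypes did not overlap, and the log2 fold change was 1.06 ± 0.376 (SE, limma adjusted p = 0.145), beside 0.89 for its guide. For miR-193* the value was 0.46 ± 0.183 and for miR-33*, from an intron of the sterol regulator Srebf2, 0.51 ± 0.213 (SE, limma adjusted p = 0.179 and 0.188), both without overlap. Over the same aortas the myeloid markers miR-223, miR-511 and miR-342-3p had log2 fold changes of -1.66, -1.99 and -1.33 (3 of 3 below 0, limma adjusted p from 0.0553 to 0.067), and their part in the star values was not tested. Nor was that of red cell miR-451 and liver miR-122, both at 1.36 (limma adjusted p = 0.174 and 0.22).

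By family, no star other than miR-881* passed. Of 7 let-7 stars, let-7f* with a silent well among them, 6 were below 0 with a median log2 fold change of -0.64, beside -0.61 for their guides, but with U87 and Y1 as references 3 were below 0 and the median was 0.03. Of 9 stars of the Dlk1-Dio3 region, known for imprinted expression from the maternal copy, 9 were below 0 with a median of -0.65, 3 of them without overlap (32.9% of all assays), and with U87 and Y1 4 were below 0 and the median was 0.02. All 8 stars of the miR-29 and miR-30 families, including miR-30c-1* and miR-30c-2* with silent wells, were below 0, with a median of -0.31, whereas 2 were with U87 and Y1, and 3 each with mean centring and quantile normalization. The 3 detected stars of the Sfmbt2 repeat, miR-297a*, miR-467a* and miR-467b*, were above 0 under each of the 8 scalings, with a median of 0.54, although each overlapped between genotypes and the guides of miR-467a* and miR-467b* were at -0.50 and -0.15. The 10 stars of vessel wall microRNAs, such as miR-10b*, miR-125b* and miR-214*, had a median of -0.55 (8 below 0), and 0.12 with U87 and Y1. Of 6 stars linked to metabolism 3 were higher without overlap (2.39% of all assays), miR-378*, miR-193* and miR-33*, and 1 was lower without overlap (32.9% of all assays), miR-28* at -0.75. The median of the 6 was 0.04. Those 3 were all of the 86 stars that were higher without overlap. The list was chosen with earlier results of these data known, so its count is a description.

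The star-minus-guide Ct itself showed no called difference between genotypes: 0 of 77 pairs passed limma's test, against 0.0% of all 101 pairs of arms, and 14 of the 77 had an unadjusted p under 0.05, against 16.8% of the 101. The difference, Dicer_KO minus Dicer_WT, had a median of 0.05 cycles over the 77 pairs and -0.01 over the 24 pairs of 5p and 3p arms. Over the 68 full pairs it ranged from -1.03 to 1.20 cycles, and 57 of the 68 stayed within 0.5 cycle and 66 within 1 cycle of 0. The genotypes did not overlap in 9 pairs whose star was lower relative to its guide in Dicer_KO (10.9% among all 101 pairs) and in 7 whose star was relatively higher (8.91%). Without Dicer_KO replicate 1, 3 pairs passed, miR-148a*, miR-300* and miR-330*, each with wells at the limit. Within a genotype the median SD over full pairs was 0.22 cycles for star-minus-guide Ct and 0.27 for the star level alone. A p that misses the threshold does not show that the ratios were equal.

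The let-7d pair had the smallest p. Its star-minus-guide Ct was 4.06, 4.33 and 4.32 in Dicer_WT and 4.90, 5.07 and 5.10 in Dicer_KO, so each Dicer_KO aorta lay above each Dicer_WT aorta. The difference was 0.78 cycles (95% interval 0.43 to 1.13, limma adjusted p = 0.199), with the star at -1.36 and the guide at -0.58 on the log2 scale. For miR-154, of the Dlk1-Dio3 region, the values were 2.43, 2.40 and 2.02 against 2.81, 3.44 and 4.21, a difference of 1.20 cycles without overlap (95% interval 0.24 to 2.17, limma adjusted p = 0.252). For the miR-24-1 hairpin they were 12.7, 13.3 and 13.6 against 13.8, 13.8 and 14.1, a difference of 0.71, whereas for miR-24-2, with the same guide assay, the difference was 0.23 and the genotypes overlapped. For miR-29c and miR-455 the differences were 0.51 and 0.43, again without overlap. Those of miR-10b (0.33), miR-30e (0.13) and miR-31 (0.11) were also without overlap. Between cards, U87 differed by 0.37 to 0.78 cycles across aortas, a wider range than the differences of miR-30e and miR-31. The 1.10 of miR-879 rested on a guide near the limit and turned to -0.24 with Ct 40 taken as measured.

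In the other direction, the star lay closer to its guide in Dicer_KO, without overlap, in 7 pairs, several of them with guides read early. For miR-16, known for restraining the cell cycle, star-minus-guide Ct was 11.1, 11.1 and 11.3 in Dicer_WT and 10.7, 10.7 and 10.8 in Dicer_KO. The genotypes did not overlap, with a difference of -0.43 cycles (95% interval -0.72 to -0.13, limma adjusted p = 0.252). The log2 fold change was -0.00 for miR-16* and -0.43 for miR-16. For miR-145 the difference was -0.79 cycles (95% interval -1.35 to -0.23, limma adjusted p = 0.252), with the star at 0.38 and the guide at -0.42. For miR-27a it was -0.49, from 4.84, 4.86 and 4.83 to 4.504, 4.129 and 4.415. The pairs of miR-744 and let-7c-1 had -0.44 and -0.74, and miR-21, induced in inflamed tissue, -0.92, each without overlap. None of these passed the test. The seventh was miR-200b*, with silent wells.

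**Figure D3:**
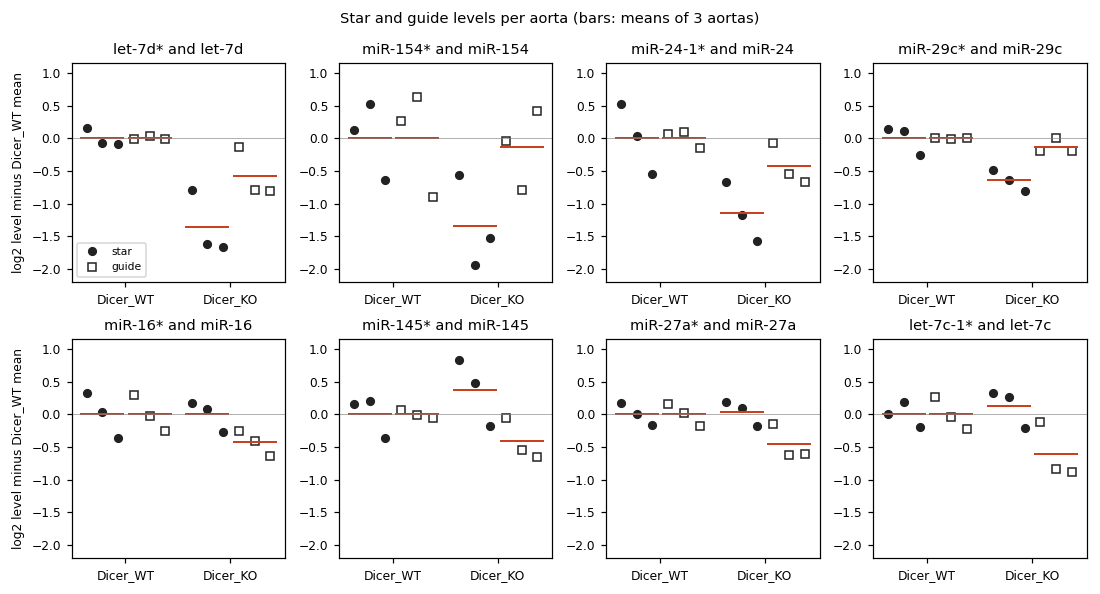
Log2 level of the star (filled circles) and guide (open squares) in each aorta, minus the Dicer_WT mean of that arm (y axis), by genotype (x axis) for 8 hairpins, with red bars at the means of 3 aortas. In the upper row (let-7d, miR-154, miR-24-1, miR-29c) the star mean lies below the guide mean in Dicer_KO, and in the lower row (miR-16, miR-145, miR-27a, let-7c-1) above it.

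The 2 arms of a hairpin mostly shared the sign of their fold change. With 78.5% of all assays below 0, most unrelated arms would also share it. With U87 and Y1 as references, 20 of the 86 stars were below 0. In 56 of 77 pairs star and guide were both below 0, in 6 both above 0, in 12 the star was above and the guide below 0, and in 3 the reverse. Over the 68 full pairs Pearson's r of the fold changes was 0.52 and Spearman's rho 0.42, given as a description because all pairs share the same 6 aortas. The highest pair was miR-378 with 1.06 for the star and 0.89 for the guide, read on the same card. The neighbours miR-322 and miR-503 on the X chromosome also had both arms above 0, with stars at 0.57 and 0.62 and guides at 0.72 and 0.17.

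**Figure D4:**
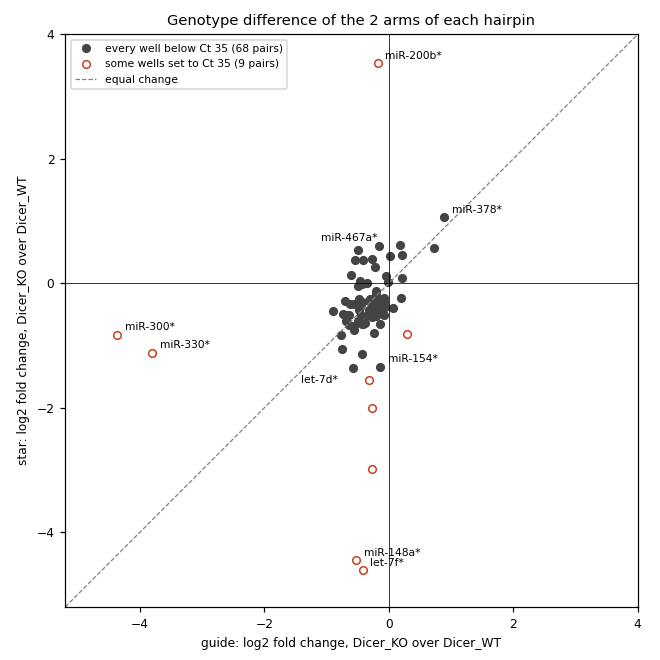
Log2 fold change of the star (y axis) against that of its guide (x axis), Dicer_KO over Dicer_WT relative to U6, snoRNA135 and snoRNA202, for 77 pairs. Filled points are the 68 pairs with every well below Ct 35, open points the 9 with wells set to Ct 35, and the dashed line marks equal change; the filled points cluster near the line and the far points, such as let-7f* and miR-300*, are open. With U87 and Y1 as references the median star moves from -0.39 to 0.27.

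Pairs with a well at the limit gave the widest differences, each set by which wells were silent. In let-7f* a single Dicer_KO aorta read 40 and the others 23.6 and 24.5, against 22.5, 22.6 and 23.7 in Dicer_WT, which gave a fitted log2 fold change of -4.61 with an SE of 3.08. In miR-133a* and miR-146b* Dicer_KO replicate 2 alone read 40, and in miR-30c-2* Dicer_KO replicate 3 alone. The fitted values of miR-148a* (-4.45) and miR-30c-1* (-2.01) turned to 0.53 and 0.58 when silent wells were left missing. For miR-200b*, detected in a single Dicer_WT aorta at Ct 30.8 and in Dicer_KO at 29.6 to 31.2, the fitted difference in star-minus-guide Ct was -3.72.

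For 5 stars the guide was not among the assays matched. Their log2 fold changes were -0.58 for miR-199b*, -0.73 for miR-299*, 0.54 for miR-297a*, 0.35 for miR-196a* and 0.51 for miR-33*, none of which passed the test. The brightest was miR-297a*, at Ct 21.9 to 23.2, with overlap between genotypes.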

How the data were processed

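The authors deposited a table of Ct values, a score per assay and aorta from TaqMan PCR after reverse transcription and preamplification (per the labels' protocols), with 40 for no product. They also deposited relative quantities, a linear ratio per assay, in which each assay is scaled to its own Dicer_WT mean; these served as an alternative. The sources used here do not give the software and thresholds behind them. In 5 cells a decimal comma was read as a point.

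Each Ct was subtracted from the mean Ct of U6, snoRNA135 and snoRNA202 of its aorta and card, with wells at or above Ct 35 set to 35. Assays below Ct 35 in at least 2 aortas of a genotype were tested, and the 77 star pairs were fitted with the 24 pairs of 5p and 3p arms. Two-sided moderated tests used limma 3.58.1 under R 4.3.3, with the Benjamini-Hochberg adjustment taken over every assay or pair and a threshold of 0.05, and control RNAs were compared by exact permutation. The steps were tested on simulated data. Ct carries no count of molecules, so 3 aortas per genotype set the precision.

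Assays named were those called, the smallest p-values in each direction, those passing through 1 genotype, the extreme pairs, list examples and stars without a guide; the others, such as miR-21* under the pair differences, miR-10b*, miR-31*, miR-18a* and miR-674*, were chosen after their values were seen. Members and lists were chosen with earlier results of these data known. Alternatives were other references, no normalization, mean centring, quantile normalization, cutoffs of 32 and 38, missing or measured silent wells, other filters, a replicate block and leaving out each aorta.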

Additional observations from a re-analysis of the deposited data

How the results depend on the processing

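The count of stars called was 1 and became 2 with mean centring and 2 with quantile normalization (adding miR-33*), 3 with a Ct cutoff of 32, and 2 with silent wells missing or with detection in all 6 aortas (let-7d* and miR-330*, without miR-881*). Leaving out single aortas gave 1 to 10. The median log2 fold change of the stars, -0.39, was -0.62 with U6 alone, 0.27 with U87 and Y1, -0.15 with all 6 control RNAs, -0.033 with mean centring and 0.050 with quantile normalization, and -0.50 to -0.28 leaving out single aortas. The median star-minus-guide Ct in Dicer_WT, 4.24, was 3.72 with U6 alone, 3.76 without normalization or with mean centring, and 4.52 without a filter. The authors' relative quantities give no such level, because each assay is scaled to its own Dicer_WT mean. The count of pairs with the star ahead in every aorta stayed between 12 and 16. Pairs called rose from 0 to 1 without a filter (miR-881*) and lay at 0 to 3 leaving out single aortas. The median difference of star-minus-guide Ct between genotypes, 0.05, was 0.11 with U6 alone, -0.10 with U87 and Y1, -0.016 without normalization or with mean centring, -0.017 with quantile normalization, and -0.032 to 0.094 leaving out single aortas. Log2 fold changes reversed with U87 and Y1 for miR-29c* (0.017), miR-93* (0.16) and miR-24-2* (0.0042), and with silent wells missing for miR-148a* (0.53) and miR-30c-1* (0.58), and the difference of miR-879* with Ct 40 as measured (-0.24). The causes were not tested. Same-numbered aortas correlated at -0.08, -0.10 and 0.04, and differently numbered ones at -0.13 to 0.18. With 3 aortas per genotype these values cannot decide whether the numbers pair the samples. The fit with the replicate block called 1 star and 0 pairs. Every well lay above Ct 30 in miR-133a*, miR-136*, miR-196a*, miR-200a*, miR-218-2*, miR-300* and miR-470*, which limits these.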
